A study of Mus musculus with 8 samples.

Results

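Müller glia (MG) are the main glia of the retina, and the comparison of their miRNAs with those of retinal neurons in the adult mouse is described here. Both samples came from adult mice labelled Rlbp-Cre:tdTomato, which the study's methods give as Rlbp-CreER crossed to Stop f/f-tdTomato, so that Cre needs tamoxifen and a floxed stop blocks the reporter until Cre acts. In them tamoxifen (75 mg/kg on 2 consecutive days, at ages over P21) switches on the red reporter tdTomato in cells that use the Rlbp1 promoter. The adult MG sample was the sorted tdTomato+ fraction and the adult neuron sample the sorted tdTomato- fraction, each pooled over 40 retinas into 1 sample. The Rlbp1 promoter is also active in pigmented and ciliary epithelium, which the study's methods say were dissected away. The study also checked purity by sorting both fractions again. It reports that plated tdTomato+ cells stained for Sox2, which it gives as absent from both epithelia. In mice with labelled rods it found no rods among the plated tdTomato+ cells. The tdTomato- fraction held sorted cells of any type without fluorescence, in which rods outnumber all others. Cells of intermediate fluorescence were left out of both fractions. Of the other 6 samples of the series, only the same fractions of P11 mice (32 retinas each, labelled P11/12, of the same genotype and with tamoxifen at P9 and P10) are used below.

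The mouse panel held 566 probes for mouse miRNAs, read as barcode counts. A miRNA was a member of the comparison when its raw count lay above the mean plus 2 SD of the 8 Negative probes in at least 1 of both samples, which was 71.7 counts in adult MG and 69.9 in adult neurons. 199 of 566 passed. 171 were above background in adult MG, 142 in adult neurons and 114 in both, so 57 were above it in MG alone and 28 in neurons alone. Just inside the limit were miR-369-3p, miR-467a and miR-717 with 72 counts in MG and miR-384-3p with 70.0 counts in neurons. Just outside were miR-1, miR-376b, miR-669j and miR-670 with 71 counts in MG. After subtraction of the Negative mean, mouse miRNAs summed to 678157 counts in MG and 335079 in neurons, 2.02 times as many in MG. Levels are given as the share of that sum in each sample. On that scale the limit less the Negative mean was 0.00487% in MG and 0.0113% in neurons. A miRNA of equal share could therefore pass in MG and not in neurons. How much of the 57 against 28 came from this was not tested. There was 1 pool per fraction and no replicate, so no test was possible, and every interval below covers counting error alone, from exact Poisson 95% limits. For a ratio the lower limit of one count was set against the upper limit of the other. In pools of sorted cells, more cells of a type and more RNA per cell cannot be told apart.

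miRNAs are short RNAs that lower the output of mRNAs by pairing with them, mainly through the seed, bases 2 to 8 from the 5′ end. Members of a family share the seed and so share many of their target sites, and several miRNAs are often cut from 1 primary transcript. In the retina miR-124 is known as the abundant miRNA of neurons, miR-183, miR-96 and miR-182 as a cluster of sensory cells that is strong in photoreceptors, while miR-9 and miR-125b are known from neural progenitors and glia and miR-204 from the pigmented epithelium and lens. An RNA sequence in the RefSeq table (GRCm38.p6) could be matched to 131 of 199 members. Those that carry the comparison are printed with the seed in capitals. Each miRNA of the first group had a share at least 4-fold higher in adult MG than in adult neurons:

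miR-204: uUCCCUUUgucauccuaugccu
miR-125b-5p: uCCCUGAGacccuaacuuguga
miR-9: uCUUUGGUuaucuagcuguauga
miR-99a: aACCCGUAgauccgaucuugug
miR-100: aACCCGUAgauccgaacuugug
miR-135a: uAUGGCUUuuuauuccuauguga
miR-23a: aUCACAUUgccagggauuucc

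Each miRNA of the second group, like miR-124, had a share at least 4-fold lower in adult MG than in adult neurons:

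miR-183: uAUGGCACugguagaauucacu
miR-96: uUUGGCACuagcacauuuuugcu
miR-182: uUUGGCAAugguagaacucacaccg
miR-211: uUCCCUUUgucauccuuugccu
miR-29c: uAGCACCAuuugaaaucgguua

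The third group shows relatives that differ in few bases and leaned to different fractions:

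miR-29a: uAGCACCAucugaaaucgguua
let-7c: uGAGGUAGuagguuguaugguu
let-7b: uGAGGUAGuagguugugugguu
let-7g: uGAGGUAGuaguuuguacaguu
miR-130a: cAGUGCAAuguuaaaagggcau
miR-130b: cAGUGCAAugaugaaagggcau
miR-152: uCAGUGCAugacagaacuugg
miR-148b: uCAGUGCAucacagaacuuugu

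Counting positions from 1 at the 5′ end and giving the base of the first-named miRNA first, miR-204 and miR-211 differ by A17U alone. miR-29a and miR-29c differ by C10U, and miR-99a and miR-100 by U16A. let-7c differs from let-7b by A17G and from let-7g by G12U, U18C and G19A. The gene of miR-204 lies at chr19:22750610-22750631 (GRCm38.p6, plus strand), within the span of the channel gene Trpm3, and that of miR-211 at chr7:64205831-64205852, within Trpm1. The miR-183, miR-96 and miR-182 sequences lie on the minus strand of chromosome 6 within Mirc35hg, with miR-183 at chr6:30169711-30169732 and miR-182 3749 bp away.

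Few miRNAs held most of either profile. miR-204 alone took 36.5% of the miRNA counts of adult MG (247414 raw counts, interval 36.3 to 36.6%), and miR-124 alone took 30.8% of those of adult neurons (103107 raw counts, 30.6 to 30.9%). The 3 highest miRNAs held 60.1% of the counts in MG and 49.7% in neurons, and the 10 highest held 81.3% in MG and 73.6% in neurons. The MG profile reached 50% of its counts with 2 miRNAs and 90% with 19, against 4 and 30 in neurons. The profile of the MG was therefore the steeper one.

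**Figure D1:**
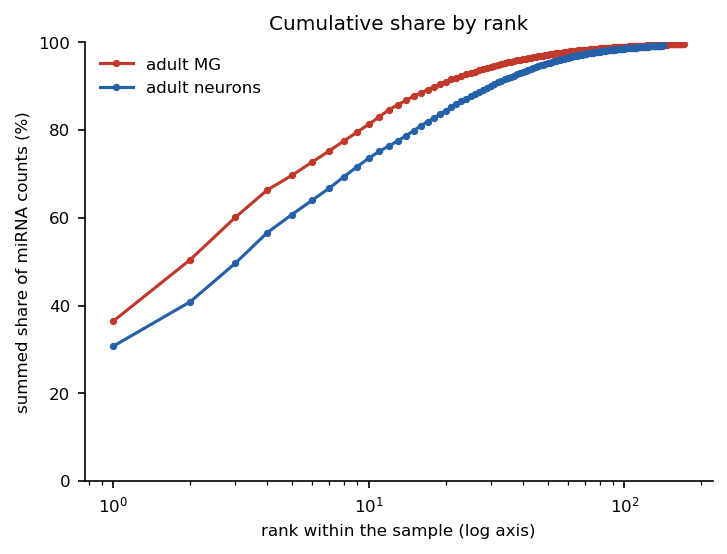
Summed share of miRNA counts (%) against rank within the sample (log axis), for adult MG and adult neurons, 1 pooled sample each; each point is 1 miRNA above background. The 10 highest miRNAs reach 81.3% in MG and 73.6% in neurons.

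The leading miRNAs changed places between the fractions. In adult MG the first was miR-204, followed by miR-125b-5p and then by miR-9, and ranks 4 to 10 went to miR-181a, let-7c, miR-720, miR-99a, let-7b, let-7g and miR-30c. miR-720 is a probe whose sequence is known to derive from a tRNA. In adult neurons the order was miR-124, miR-183, miR-96, miR-181a, let-7g, miR-1944, miR-16, let-7d, miR-30c and miR-29c. The 15 highest of both fractions had 10 miRNAs in common. miR-181a had rank 4 in both, with 6.23% in MG and 6.96% in neurons, and let-7a stood at rank 14 in both, with 1.04% in MG and 1.16% in neurons. Ranks do not depend on the scaling between samples. Among the 114 miRNAs above background in both, miR-1927 stood highest in MG relative to neurons, at rank 33 in MG and 135 in neurons. miR-183 stood at rank 62 in MG and 2 in neurons, and miR-96 at rank 68 in MG and 3 in neurons.

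A miRNA was called when its share differed at least 4-fold, with values under the background set to the background floor (0.00487% in MG, 0.0113% in neurons). By that rule 15 of 199 miRNAs (7.54%) were higher in adult MG and 28 (14.1%) were lower. Of the 15, 10 were above background in both fractions, and of the 28, 14 were. In the others the fold is a lower bound against the floor. As the floor was lower in MG, a bound reached 4-fold more easily for miRNAs lower in MG than for those higher. The 15 higher miRNAs made up 66.3% of the counts in MG and 3.42% in neurons. The 28 lower miRNAs made up 1.37% in MG and 60.0% in neurons. The 156 miRNAs that were not called held 32.0% of the MG counts and 36.2% of the neuron counts. For 36 of these 156 no ratio could be given, because only a bound under 1-fold was left. Just outside the fold limit were miR-130a (3.95-fold higher in MG) and miR-15a and miR-2141 (3.99-fold and 3.96-fold lower in MG).

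**Figure D2:**
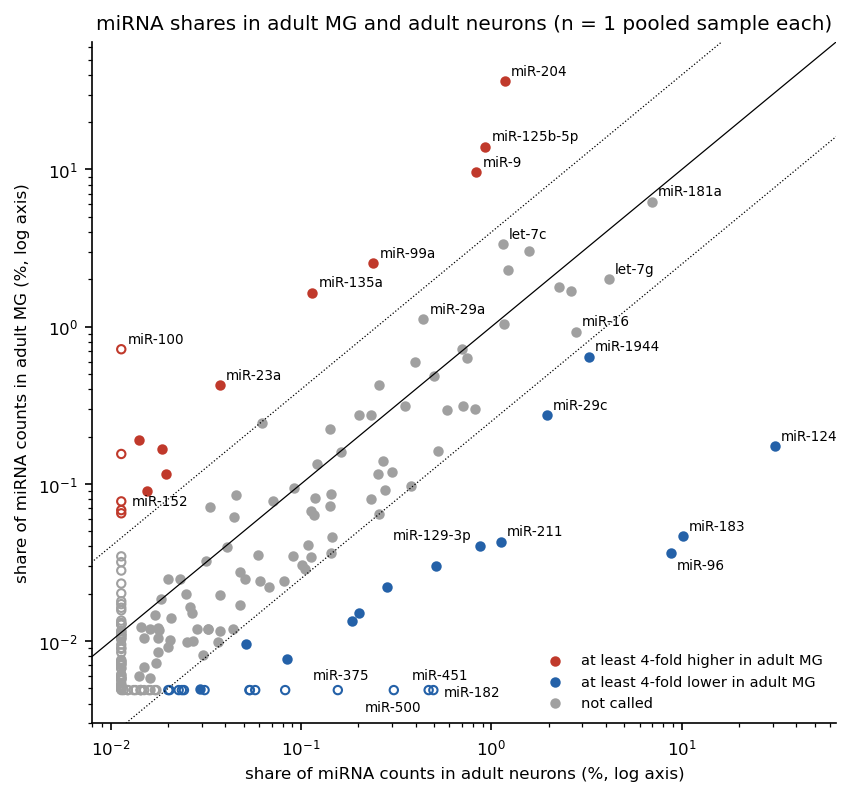
Share of miRNA counts in adult MG (vertical, %, log axis) against adult neurons (horizontal, %, log axis) for the 199 members, 1 pooled sample each; open circles are values set to the background floor in 1 fraction, the solid line is equality and the dotted lines are 4-fold. The 15 miRNAs higher in MG lie above the upper dotted line and the 28 lower ones below the lower line.

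Scaling to the 4 housekeeping mRNAs, as the study did, moves every ratio by the same amount. Actb had 7024 raw counts in MG and 1025 in neurons, and B2m 375 in MG and 17 in neurons, while Gapdh had 730 in MG and 1070 in neurons. Relative to shares, the log2 ratio of MG to neurons moved by -0.78 with the sum of the 4 mRNAs, -1.80 with Actb alone and 1.60 with Gapdh alone. It moved by 0.97 with the positive controls and 0.90 with the median of ratios. With the housekeeping sum 10 miRNAs (5.03%) were at least 4-fold higher in MG and 72 (36.2%) at least 4-fold lower. The median log2 ratio of the 114 miRNAs measured in both fractions was -0.90 on the scale of shares and -1.68 on the housekeeping scale. None of these shifts exceeds the 4-fold limit of a call, so a called miRNA could not change direction under the 10 scalings run, but it could drop below 4-fold. 4 of the higher and 14 of the lower ones were past 4-fold in every one of these scalings. miR-100, miR-204, miR-125b-5p and miR-135a were the 4 higher ones.

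**Figure D3:**
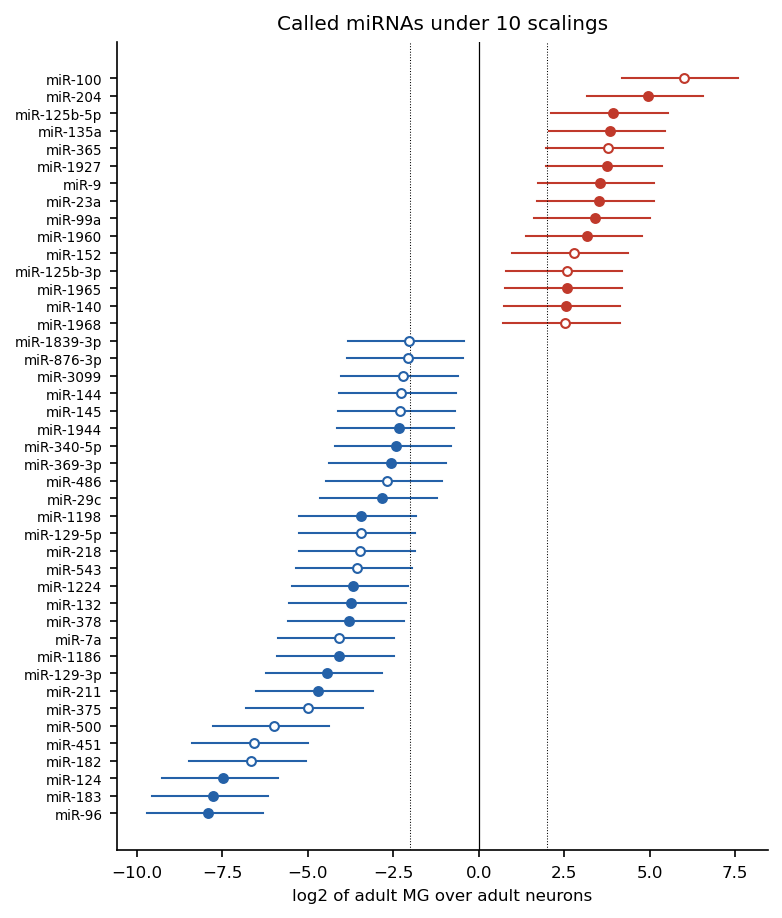
log2 ratio of adult MG to adult neurons for the 43 called miRNAs; points are ratios of shares (open where 1 fraction was at the background floor), horizontal lines span the lowest and highest value under the 10 scalings, and dotted lines mark 4-fold. No scaling shifts a ratio by 4-fold, so no line could cross 0; the lines of 4 higher and 14 lower miRNAs stay past 4-fold.

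miR-204 was the strongest miRNA of the MG. It had 247414 raw counts in adult MG and 3959 in adult neurons, a share of 36.5% in MG against 1.17% in neurons, 31.1-fold higher (30.0 to 32.3). miR-125b-5p, a miRNA of neural progenitors and glia, had 94931 raw counts in MG and 3140 in neurons, 14.0% in MG against 0.928% in neurons, 15.1-fold higher (14.5 to 15.7). miR-9, which tunes the timing of neural progenitors, had 65337 raw counts in MG and 2821 in neurons, 9.63% in MG against 0.832% in neurons, 11.6-fold higher (11.1 to 12.1). These 3 miRNAs were the first 3 of the MG and ranked 13, 17 and 19 in the neurons. They were thus strong in both fractions while far above their neuron share in MG.

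miR-100 gave the widest difference of the MG side. It had 4910 raw counts in MG and 23 in neurons, under the mean of the Negative probes there, so that it was at least 63.3-fold higher in MG. miR-99a, of the same seed, had 17195 raw counts in MG and 833 in neurons and was 10.6-fold higher (9.71 to 11.5). miR-135a had 11150 raw counts in MG and 416 in neurons and was 14.3-fold higher (12.6 to 16.2), at rank 12 in MG and 58 in neurons. miR-23a had 2919 raw counts in MG and 157 in neurons and was 11.4-fold higher (9.04 to 14.5). The remaining 8 called miRNAs of this side had between 479 and 1331 raw counts in MG and between 45 and 97 in neurons. Of these, miR-365 was at least 13.7-fold higher, miR-1927 13.6-fold (9.07 to 22.0), miR-1960 8.98-fold (6.32 to 13.4) and miR-152 at least 6.82-fold. miR-140, known from cartilage, was 5.80-fold higher with an interval of 3.86 to 9.35 that reaches below 4-fold. The 7 miRNAs the study called mGliomiRs are all among the 15, and of the 17 it called neuronal 13 are among the 28 lower in MG, without miR-151-5p, miR-210, miR-301a and miR-15a, but both lists were chosen on these samples and are not independent evidence.

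miR-124, which in neurons represses non-neuronal mRNAs, was the strongest miRNA on the other side. It had 1211 raw counts in adult MG and 103107 in adult neurons, 0.173% in MG against 30.8% in neurons, 178-fold lower in MG (167 to 190). miR-183 had 353 raw counts in MG and 33941 in neurons, 0.0464% in MG against 10.1% in neurons, 218-fold lower (192 to 249). miR-96 had 285 raw counts in MG and 29415 in neurons, 0.0363% in MG against 8.77% in neurons, 241-fold lower (209 to 281). miR-182, the third of the photoreceptor cluster, was at background in MG with 40 raw counts, had 1691 in neurons, and was at least 102-fold lower in MG. The cluster as a whole held 0.0829% of the counts in MG and 19.4% in neurons. Its members did not have equal counts within the neurons, where miR-182 made up 2.55% of the cluster's counts against 52.2% for miR-183. Whether probes of different miRNAs read equal amounts alike was not tested.

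Of the list of 16 neuronal miRNAs on the panel, 8 were members, 6 of them called lower in MG and none higher, where 14.1% of all members were called lower and 7.54% higher. All 8 were above background in neurons but only 4 in MG, and those at background in MG could only be lower there. The median log2 ratio of the 8, these bounds included, was -3.60, against -0.90 for all members measured in both fractions. miR-129-3p had 313 raw counts in MG and 2950 in neurons and was 21.5-fold lower in MG (18.3 to 25.5). miR-132, a miRNA that neuronal activity raises, had 141 raw counts in MG and 707 in neurons and was 13.3-fold lower (9.89 to 18.4). miR-7a and miR-218 were at background in MG with 57 and 26 raw counts and had 308 and 212 in neurons. They were at least 16.9-fold and at least 11.0-fold lower in MG. The other 8 of the list, miR-128, miR-138 and miR-153 among them, were at background in both fractions, with at most 62 raw counts in MG and 57 in neurons.

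Outside that list, miR-500 was at background in MG with 33 raw counts, had 1060 in neurons, and was at least 63.0-fold lower in MG. miR-375, known from endocrine cells, had 14 raw counts in MG and 554 in neurons and was at least 32.0-fold lower. miR-1186 was 17.1-fold lower in MG (14.0 to 21.0), miR-378 13.8-fold (10.0 to 19.6) and miR-1224 12.7-fold (10.0 to 16.4). miR-1944, the sixth miRNA of the neurons, had 4389 raw counts in MG and 10894 in neurons and was 5.05-fold lower in MG (4.81 to 5.31). 7 of the 28 miRNAs lower in MG had fewer than 150 raw counts in neurons and only bounds or wide intervals. miR-369-3p, with 72 raw counts in MG and 130 in neurons, was 5.95-fold lower with an interval of 2.98 to 14.0.

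The miRNAs called higher in 1 fraction were not all reduced to the same extent in the other. In MG the share of miR-96 was 0.414% of its share in neurons, that of miR-183 0.458% and that of miR-124 0.562%. For miR-211, miR-129-3p, miR-1186, miR-132 and miR-1224 it was 3.84%, 4.65%, 5.86%, 7.49% and 7.85%. In neurons the share of miR-204 was 3.21% of its share in MG, and that of miR-125b-5p 6.63%, miR-9 8.64% and miR-99a 9.45%, whereas miR-100 was at most 1.58%. No common ratio therefore held for either set. How much of each residue came from cells of the other fraction was not tested.

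Markers of other cells were few. The erythroid miRNAs miR-451, miR-144 and miR-486 were all at background in MG with 26, 11 and 40 raw counts and above it in neurons with 1599, 111 and 136. All 3 were called lower in MG, where 14.1% of all members were. As they were members through the neurons alone, they could not have been called higher. miR-451 was lower by at least 96.0-fold, miR-486 by at least 6.38-fold and miR-144 by at least 4.85-fold. Together the 3 made up 0.522% of the neuron counts. The endothelial miR-126-3p had 208 raw counts in MG and 109 in neurons, 0.0250% in MG against 0.0230% in neurons (ratio 0.705 to 1.71). Of 7 microglia and leukocyte miRNAs, 5 were above background in MG, where the floor was lower, and 1 in neurons. None was called. The list summed to 0.0683% in MG and 0.0790% in neurons, and miR-223 and miR-155 were at background in both. Of 5 mural and mesenchymal miRNAs only miR-145 was above background, with 64 raw counts in MG and 113 in neurons. The oligodendrocyte list had miR-338-3p at 0.0776% in MG and 0.0708% in neurons and miR-219 at background in both. Of 3 miRNAs known from pigmented epithelium, miR-221 and miR-222 were at background in both, and miR-211 was 26.1-fold lower in MG. miR-204, also known from that epithelium, stood outside that list and was 31.1-fold higher in MG. Of 8 miRNAs of muscle and liver only miR-208a (130 raw counts in MG, 10 in neurons) and miR-499 (18 in MG, 71 in neurons) were above background in a fraction. The part of these cells in the ratios above was not tested.

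On the scale of shares, families showed whether the fractions differed in a seed or only in which member carried it. Summed shares move with the scaling as single ratios do. Sequences gave 95 seeds, of which 18 were shared by at least 2 members. The ratio between 2 miRNAs within a sample needs no scaling, so differences between relatives hold whichever scaling is used. Within a sample such a ratio, and the make-up of a family, is one of counts. How evenly probes of different miRNAs read was not tested. The direction of a single miRNA does not always hold. With Gapdh alone those lower in MG by less than 1.60 on the log2 scale turned higher, let-7g, miR-301a and miR-99b among them. With Actb alone let-7b, let-7c, miR-29a, miR-29b and miR-148a turned lower. miR-29b and miR-148a also turned lower with the housekeeping sum, as did miR-27a and miR-125a-5p.

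miR-204 and miR-211 carry the same seed and were called in opposite directions, as for no other of the 18 shared seeds. miR-211, whose host gene Trpm1 is known from melanocytes and ON bipolar cells, had 329 raw counts in MG and 3772 in neurons and was 26.1-fold lower in MG (22.3 to 30.6). In neurons both miRNAs had nearly equal counts, with miR-204 at 1.17% and miR-211 at 1.12%. In MG miR-211 was 0.117% of miR-204, so at most that share of miR-204, which differs in 1 base, was read by the miR-211 probe. Their log2 ratios differed by 9.66 (9.39 to 9.94). The seed as a whole took 36.5% of the counts in MG and 2.29% in neurons.

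On the scale of shares the let-7 miRNAs, known as brakes on the genes of dividing progenitors, had nearly the same sum in both fractions but another make-up. The 9 members summed to 11.5% of the counts in MG and 11.8% in neurons, and none was called. This sum moves with the scaling: the median log2 ratio of the members was -0.17 with shares and -0.95 with the housekeeping sum. That median turned positive with 6 other scalings, Gapdh alone among them. let-7c made up 29.1% of the family in MG and 9.73% in neurons, and let-7b 20.0% in MG and 10.4% in neurons. let-7g made up 17.4% of the family in MG and 35.1% in neurons, and let-7d 14.8% in MG and 22.3% in neurons. Set against let-7g, let-7c had 1.67 times the counts in MG and 0.277 times in neurons, a difference of 2.59 on the log2 scale (2.48 to 2.71). let-7a, let-7e and let-7i lay closest to equal shares, with log2 ratios of -0.17, -0.05 and -0.17. The genes of let-7c and let-7b lie 709 bp apart on chromosome 15, and a second let-7c gene lies 732 bp from miR-99a on chromosome 16.

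The miR-29 family, known for repressing extracellular matrix genes, was led by different members. miR-29a had 7585 raw counts in MG and 1501 in neurons and miR-29c 1893 in MG and 6565 in neurons. miR-29a made up 69.1% of the family in MG and 17.3% in neurons, and miR-29c 17.0% in MG and 77.1% in neurons. Their log2 ratios differed by 4.18 (3.97 to 4.39), while the summed share of the family was 1.61% in MG and 2.53% in neurons. miR-29b followed miR-29a, with 0.223% in MG and 0.141% in neurons. The miR-29a gene lies 352 bp from 1 gene of miR-29b on chromosome 6, and miR-29c lies 509 bp from the other on chromosome 1. The panel does not tell the products of both miR-29b genes apart.

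Smaller families were split too. miR-130a had 1703 raw counts in MG and 240 in neurons, whereas miR-130b had 188 in MG and 258 in neurons and miR-301a 658 in MG and 952 in neurons. miR-130a and miR-130b differed by 3.60 on the log2 scale (2.85 to 4.36), while the seed summed to 0.359% in MG and 0.404% in neurons. miR-152 was at least 6.82-fold higher in MG with 563 raw counts in MG and 64 in neurons, and miR-148b was 3.68-fold lower in MG (2.82 to 4.82) with 233 in MG and 385 in neurons. Their relative miR-148a was 1.36-fold higher in MG, with 1891 raw counts in MG and 706 in neurons. miR-99b was 1.66-fold lower in MG (1.39 to 1.98), so it parted from miR-99a by 4.13 on the log2 scale (3.75 to 4.52). miR-125a-5p had 0.720% in MG and 0.701% in neurons, so the difference of the miR-125 seed, 14.7% in MG against 1.63% in neurons, lay with miR-125b-5p.

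**Figure D4:**
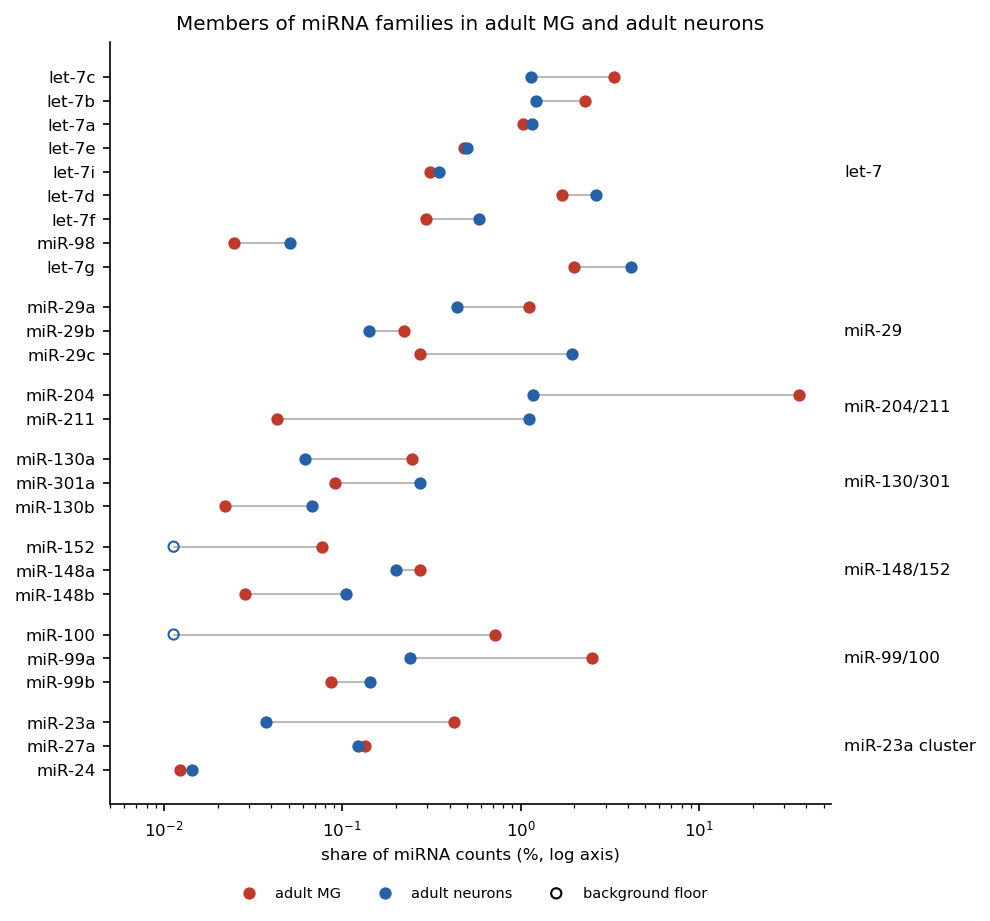
Share of miRNA counts (%, log axis) in adult MG and adult neurons for members of 6 families and of the miR-23a cluster, 1 pooled sample each; open circles are at the background floor. In each of the 6 families at least 1 member has the higher share in MG and at least 1 the higher share in neurons.

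Neighbouring miRNA genes did not always give like ratios. The genes of miR-23a, miR-27a and miR-24 lie within 312 bp on chromosome 8, yet miR-23a was 11.4-fold higher in MG while miR-27a (1.10-fold, 0.927 to 1.30) and miR-24 (0.856-fold, 0.458 to 1.68) were near equal. miR-23a and miR-27a differed by 3.38 on the log2 scale (2.80 to 3.97). miR-24 had only 122 raw counts in MG and 80 in neurons. It has a second gene on chromosome 13, and the panel does not tell the products of both genes apart. miR-23b, of a second such cluster, was 1.97-fold lower in MG (1.64 to 2.38). miR-183 and miR-96, 205 bp apart, had log2 ratios that differed by 0.14, within counting error (-0.25 to 0.55).

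Both arms of a hairpin could be read in some cases. miR-125b-3p had 500 raw counts in MG and 56 in neurons and was at least 6.00-fold higher in MG, in the direction of miR-125b-5p. In MG the 3p arm had 0.486% of the counts of the 5p arm. miR-129-5p was at background in MG with 69 raw counts, and was at least 11.0-fold lower in MG, in the direction of miR-129-3p. miR-423-5p and miR-423-3p were 2.02-fold (1.10 to 3.70) and 2.75-fold (1.69 to 4.54) lower in MG.

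Other lists gave few calls. Of the 54 probes of the imprinted Dlk1-Dio3 locus 14 were members, 2 of them called lower in MG and none higher, a share like that of all members (14.1% lower). All 13 with a ratio had the lower share in MG, as had 83 of the 114 members measured in both fractions, and the intervals of miR-154, miR-127 and miR-376c included equal shares. miR-543, miR-410 and miR-381 were above background in neurons alone, so they could only be lower in MG. miR-329, above it in MG alone, gave no ratio. The median log2 ratio of the 13, bounds included, was -1.33 beside -0.90 for all members measured in both fractions. The miR-30 family summed to 2.85% in MG and 3.11% in neurons, and the miR-181 family to 6.31% in MG and 7.10% in neurons, with no member called. The miR-15/16 family summed to 1.14% in MG and 3.33% in neurons, led by miR-16 with 6325 raw counts in MG and 9313 in neurons (2.99-fold lower, 2.86 to 3.13). Of the 7 members of the miR-17-92 group, 5 had a ratio, all lower in MG, with a median of -1.44. miR-93 (114 raw counts in MG, 46 in neurons) and miR-106b (90 in MG, 53 in neurons) were above background in MG alone and gave no ratio. With Gapdh as the only reference mRNA the medians of the Dlk1-Dio3, miR-15/16, miR-17-92 and miR-181 lists turned positive, the last also with the positive controls, the ligation controls and the median of ratios. The median GC content of the matched sequences was 47.6% for the miRNAs higher in MG (10 matched), 38.1% for those lower (13 matched) and 45.5% for all 131.

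Fractions of P11 mice, from other pools, gave a second reading of the direction. At P11, 9 of 171 miRNAs (5.26%) were at least 4-fold higher in MG and 14 (8.19%) at least 4-fold lower. All 15 miRNAs higher in adult MG were also higher in P11 MG, 6 of them at least 4-fold. With the ligation controls as scale at P11 miR-135a was lower there and 2 of the 15 gave no ratio. Of the 28 lower in adult MG, 21 had a ratio at P11, 20 of these were lower there too, 12 at least 4-fold, and miR-1944 was higher in P11 MG. With Gapdh alone as scale at P11 18 had a ratio, and 13 of these were lower. Among the 114 members measured in both adult fractions, 83 had the lower share in MG. How many of all members kept their direction at P11 was not counted. The called miRNAs were chosen for a large adult ratio, so smaller ratios at P11 are partly given by that choice. Of the 8 higher and 13 lower miRNAs above background in all 4 fractions, 8 and 12 had the smaller ratio at P11, with miR-211 as the exception. Of the 4 higher and 9 lower miRNAs called in the P11 pair and above background in all 4 fractions, 1 and 3 had the smaller ratio in the adult, a count added after the data were seen. At P11 miR-211 had 0.0138% in MG against 1.03% in neurons, a log2 ratio of -6.23 beside -4.70 in the adult. For the other called miRNAs the background floor, which was higher at P11 (0.0120% in MG, 0.0174% in neurons), limits the ratio.

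The fraction in which the share differed between the ages was not the same for all. miR-135a had 1.64% in adult MG against 0.115% in adult neurons, and 1.76% in P11 MG against 1.28% in P11 neurons, so that its share in MG was alike at both ages. Its log2 ratio was 3.84 in the adult and 0.46 at P11. miR-9 had 9.63% in adult MG against 0.832% in adult neurons, and 19.3% in P11 MG against 6.00% in P11 neurons. miR-204 had 36.5% in adult MG against 1.17% in adult neurons, and 21.4% in P11 MG against 2.75% in P11 neurons. On the neuronal side, miR-129-3p had 0.0405% in adult MG against 0.871% in adult neurons, and 0.0605% in P11 MG against 0.135% in P11 neurons. Some relatives kept their order. At P11 the log2 ratio of let-7c exceeded that of let-7g by 1.97, and that of miR-29a exceeded that of miR-29c by 3.90. Others did not. The log2 ratio of miR-15b was -1.33 in the adult and -0.69 at P11. That of miR-16 was -1.58 in the adult and -0.25 at P11. Whether the ratios differed between the ages could not be tested with 1 pool each.

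**Figure D5:**
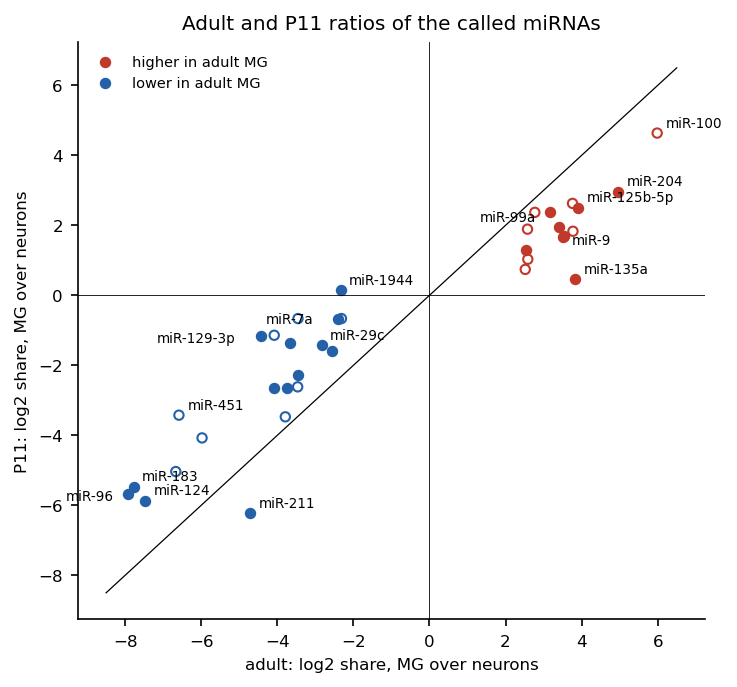
log2 ratio of shares, MG over neurons, at P11 (vertical) against the adult (horizontal) for the 36 called miRNAs with a ratio at both ages; filled points were above background in all 4 fractions, open points rest on a background floor, and the diagonal is equality. All but miR-1944 lie on the same side of 0 at both ages, and all but miR-211 lie nearer to 0 at P11, which the choice by a large adult ratio and the higher floor at P11 favour.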

How the data were processed

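Total RNA of sorted, pooled retinal cells was measured by the authors with the NanoString nCounter mouse miRNA assay, in which tags are ligated to mature miRNAs and barcodes are counted. The deposited raw table holds these counts without normalization. The deposited value table holds rounded values, named here as a score, which the authors normalized to housekeeping mRNAs and control probes within each of 2 data sets; they were used only as an alternative. Per sample, the mean of the 8 Negative probes was subtracted, negative values were set to 0, and shares of the mouse miRNA sum were taken. Ratios of at least 4-fold were called, and values not above the mean plus 2 SD were set to the floor. No pools were replicated, so no test was run. The members, lists and rules were chosen with earlier results of these data known. Named miRNAs were drawn from the 15 highest in either fraction and the 10 largest ratios each way among those with at least 500 raw counts. Others came from the top 2 to 4 by share in every list, members of seed families with at least 3 members above background, and both arms where both were measured. Not all miRNAs that met these rules are named. miRNAs used to show limits, markers or P11 differences were named after their values were seen. Older probe names without an arm were matched by hand to the current RefSeq names, and sequences with no such match were left out. Calling was tested on simulated data. There the unaltered miRNAs gave the scale, so the scaling by shares was not tested. Alternatives were other scalings, backgrounds, folds and the deposited values. Scripts ran in Python 3.11.15, with scipy 1.17.1 for intervals, matplotlib 3.10.9 for plots, and pandas 2.3.3 and numpy 2.4.6.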

Additional observations from a re-analysis of the deposited data

Results flagged for a closer look

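Of the miRNAs above background in all 4 fractions, 5 that differed at least 2-fold between adult MG and adult neurons had the opposite direction at P11, with both counting intervals clear of equal levels; the difference between the ages was not tested. The log2 ratio of MG to neurons was -2.34 in the adult and 0.14 at P11 for miR-1944, and -1.96 in the adult and 0.24 at P11 for miR-210, which hypoxia raises. It was -1.75 in the adult and 0.72 at P11 for miR-425, and -1.14 in the adult and 0.34 at P11 for miR-191, whose gene lies 464 bp away on chromosome 9. It was -1.67 in the adult and 0.54 at P11 for miR-21. In other scalings of the P11 pair, tried after the data were seen, all 5 stayed higher in P11 MG with the housekeeping sum, Gapdh, Rpl19, the positive controls, the 100 highest miRNAs and the median of ratios. With the ligation controls all 5 turned lower (-0.37 to -0.95), and with Actb alone miR-1944 did (-0.08). In the adult pair miR-191 turned higher in MG with Gapdh alone.

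The 33 viral probes, not used above, gave 2 values over the background limit of adult MG (mghv-miR-M1-7-5p with 91 raw counts and mcmv-miR-m59-2 with 79) and none in adult neurons, where the highest had 63. With the highest viral probe as the limit, 181 miRNAs remained members.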

How the results depend on the processing

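The count of 15 miRNAs at least 4-fold higher in MG became 4 with Actb alone, 36 with Gapdh alone, 23 with the positive controls and 23 at 2-fold. The count of 28 lower became 72 with the housekeeping sum, 105 with Actb alone, 14 with Gapdh alone, 18 with the positive controls, 18 with the median of ratios, 18 with the ligation controls, 81 at 2-fold and 18 at 8-fold. Under the other alternatives both counts stayed within 1.5 times. Of the called miRNAs, higher ones were 34.9% with shares, 12.2% with the housekeeping sum, 3.67% with Actb alone, 72.0% with Gapdh alone, 47.5% with Rpl19 alone, 56.1% with the positive controls, 52.5% with the 100 highest miRNAs and 53.8% with the median of ratios or the ligation controls. Without background subtraction the 10 highest miRNAs held 79.4% in MG and 70.8% in neurons, where the main values were 81.3% in MG and 73.6% in neurons. Of the called miRNAs 35 had the same direction at P11, and 28 to 36 under 9 alternatives, 7 of them added after seeing the data. With the highest viral probe as limit, chosen after seeing the data, 15 were higher and 22 lower.

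In the deposited values of adult MG in the data set with neurons, 42 mouse miRNAs carried the value of another miRNA with the same raw count in neurons, and in the second data set all 42 matched the raw counts (within 2 counts or 1%). 25 were members: miR-152 was deposited as 26 where 452 was computed, and miR-30a as 466 against 1612. With those values miR-1839-3p reversed to a log2 ratio of 0.31, miR-152 gave no ratio, and 14 higher and 28 lower miRNAs were called. Of 27 miRNAs that were followed under the alternatives though not called, 21 changed direction under at least 1, as did the medians of 14 of 25 lists. No paired analysis was possible because each fraction was 1 pool and the shared numbers in the labels mark the same MG pool in 2 data sets. Depth limits miRNAs near 72 raw counts, where intervals were wide. A count not above the background limit gave only a bound or no ratio.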
